A study of Mus musculus with 6 samples.

Results

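F-box proteins are the interchangeable substrate receptors of SCF ubiquitin ligases, which mark proteins for degradation by the proteasome. In an SCF complex the F-box motif binds the adaptor SKP1, which docks on the cullin CUL1 and its RING partner RBX1, and a second domain of the F-box protein picks the substrate. Fbxw proteins carry WD40 repeats, Fbxl proteins carry leucine-rich repeats, and Fbxo proteins carry other domains. In muscle the best known member is the atrophy ligase atrogin-1, which was left out here together with 4 other F-box genes of the muscle atrophy group. The F-box genes described were the genes whose array name began with Fbxl, Fbxo or Fbxw and a number, apart from those 5. Names alone chose them, without regard to signal, and the brightest probe stood for a gene with several. There were 72 such genes, carried by 98 probes, among 34797 gene names on the array: 32 Fbxo, 22 Fbxw and 18 Fbxl genes. Of the 72 genes, 49 could be tested, because 1 group or both had them well above background on its 3 arrays.

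The RNA came from satellite cells, the resident stem cells of skeletal muscle, which were sorted from C57BL6 mice. Cells from 3 mice that lack Rpt3 in their satellite cells were compared with cells from 3 control mice, on 1 single-colour array each. Rpt3, encoded by Psmc4, is an ATPase at the base of the 19S cap that feeds ubiquitin-tagged proteins into the proteasome. The Cre driver, the genotype of the controls, the age and sex of the mice and the time after deletion are not given in the sources used here. The comparison answers whether transcripts of these receptors, which act upstream of the proteasome, differed between the groups.

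The probes behind the leading results are shown first, because each F-box gene was read through 1 stretch of 60 bases. All are written 5′ to 3′ as they stand in the array files, with positions on mouse build mm9. The probes of Fbxo3 and Fbxo5 are given whole. Each spans an intron, at chr2:103891382-103893549 and chr10:4546271-4546763. Of the other probes, 30 bases are given. For Fbxw5 (chr2:25360925-25360984), Fbxo2 (chr4:147540456-147540515) and Fbxw11 (chr11:32646601-32646660) these are windows whose capitals mark the polyadenylation signal AATAAA, found by its letters on the probe strand.
Fbxo3: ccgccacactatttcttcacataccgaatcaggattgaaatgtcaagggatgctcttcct
Fbxo5: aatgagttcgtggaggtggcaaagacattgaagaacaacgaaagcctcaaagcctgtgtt
Fbxw5: gaactgtttgggcctgAATAAAcagttggc
Fbxo2: tcaaagtgggcactcAATAAAtatttgtcc
Fbxw11: tggaatgtgcttAATAAAaacaaaagtttg
For Fbxo44 (chr4:147527012-147527071), Fbxo10 (chr4:45047172-45047231) and both probes of Fbxw7 (chr3:84781446-84781505 and chr3:84707897-84707956) these are the first 30 bases.
Fbxo44: aggatggaccagggttttgagtggaaggac
Fbxo10: gagtcgctgtataaaaatgctgcctttgtt
Fbxw7: gatgtggacatgaaatgaaaagcagacatg
Fbxw7, other probe: agagaagatgaacatacgcacaatagcaat
Among the 49 tested genes, 10 probes held AATAAA (20.4%), against 12.2% of the probes chosen for all tested features and 10.1% of all probes on the array. Of the 23 other probes to the tested F-box genes, 2 held it (8.70%). The brightest probe of a gene was taken by rule, so the first share describes that choice as well as the genes.

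Signals are given as log2 of the processed signal minus the 75th percentile of the same array, so that 0 is the level of that percentile, and every difference is knockout minus control. Psmc4 was lower in all 3 knockout samples, at 2.05, 2.07 and 1.54, than in the controls, at 2.93, 2.61 and 2.87. The difference was −0.92 (SE 0.24, adjusted p = 0.424 by limma), and it was not established whether the Psmc4 probe lies within the deleted part. The share of probes well above background was 57.88%, 51.62% and 44.17% on the arrays of knockout 1, 2 and 3, and 53.0% to 53.5% on the control arrays. Knockout 3 stood apart on the first principal component, at 71.9 against −25.5 to −5.64 for the other 5 arrays. The first slide row held the arrays of knockout 1 and 2, and the second held knockout 3 with all controls. A value with the slide row as a block therefore rests on knockout 3 alone against the 3 controls.

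No F-box gene passed an adjusted p of 0.05. The count was 0 in either direction, and it was also 0 of all 19178 tested features (0%). At an unadjusted p under 0.05 there were 4 of 49 F-box genes (8.16%) against 7.02% of all features. Fbxo44 and Fbxw7 were the 2 with a higher mean in knockout (background 2.83%), and Fbxo3 and Fbxo10 the 2 with a lower mean (background 4.2%). The 3 knockout values lay above all 3 control values for 4 genes, Fbxo44, Fbxw7, Fbxw20 and Fbxo36 (8.16% against 5.07% of all features). They lay below all controls for 2 genes, Fbxw5 and Fbxw8 (4.08% against 5.6%). These shares are of the size of the background. In such bulk samples fewer cells of a type and less RNA per cell cannot be told apart.

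The size of the differences, whatever their sign, had a median of 0.24 over the F-box genes and 0.20 over all tested features. The signed median was −0.10 against 0.04, with 30 of 49 means lower (61.2%) where 43.7% of all features were lower. The middle 50% of the F-box differences ran from −0.26 to 0.21, and of all features from −0.19 to 0.21. A difference over 1 log2 unit was seen in 3 genes, Fbxo3, Fbxo46 and Fbxo25 (6.12% against 3.76%), all lower in knockout. Each of these was well above background in 1 of the 3 knockout samples and passed the filter through the controls alone, which favours a lower value in knockout. Of the 49 genes, 10 were not well above background on at least 1 array (20.4% against 13%). All 10 passed through the controls alone (Fbxo3, Fbxo10, Fbxo25, Fbxo46, Fbxl4, Fbxl5, Fbxw2, Fbxw5, Fbxw9 and Fbxw24), so the filter favoured the sign of their median of −0.57. The 1861 features of the whole array that passed in the same way had a median of −0.39, and the 631 that passed through the knockouts alone had 0.65. The other 39 had a median of −0.04, where all features that were above background on every array had 0.06. With a normexp background correction, whose offset of 50 compresses dim signals, the median of the F-box genes was −0.00 and 25 of 49 means were lower (51.0%).

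**Figure D1:**
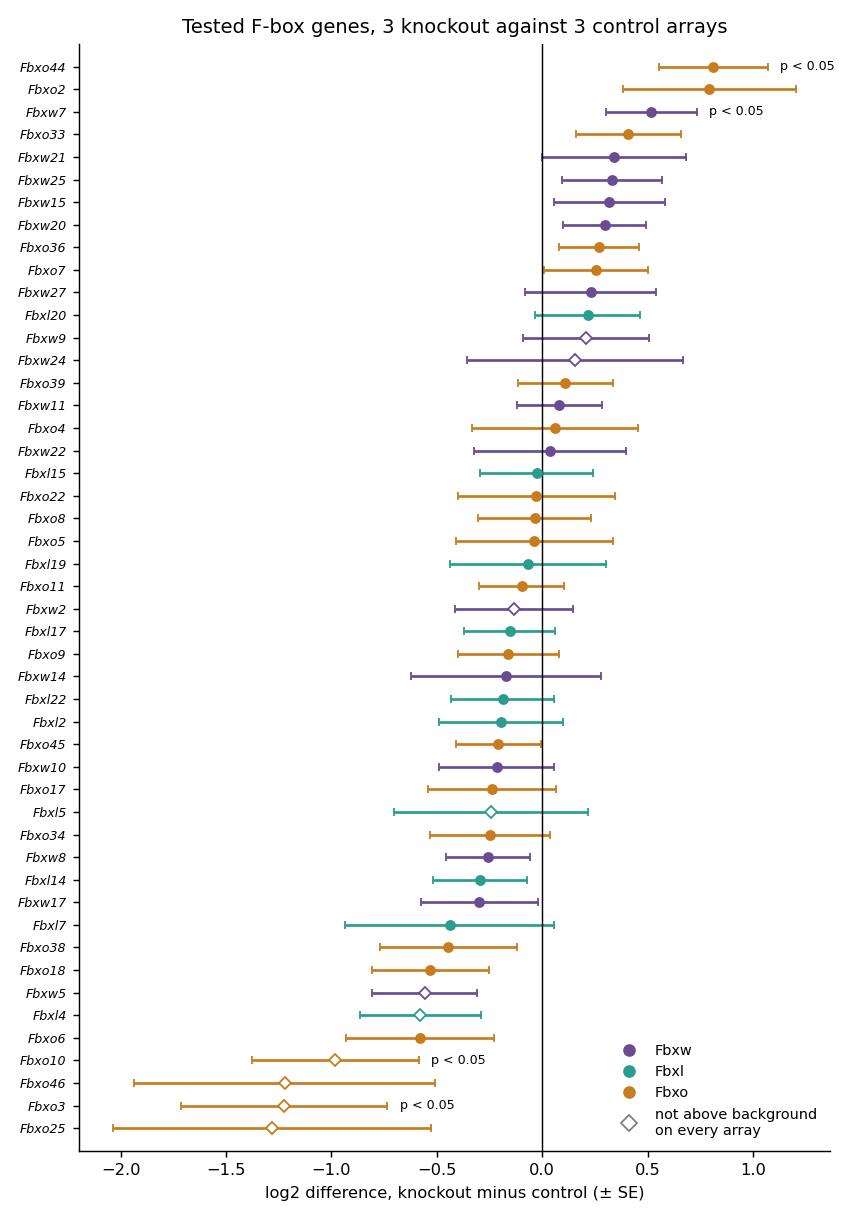
Log2 difference between 3 knockout and 3 control arrays (x axis) for 48 of the 49 tested F-box genes (y axis, sorted), with bars of ± 1 SE from limma; open diamonds mark genes not well above background on every array. The differences ran from −1.28 (Fbxo25) to 0.81 (Fbxo44), the lowest ones are open diamonds, and none passed an adjusted p of 0.05.

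**Figure D2:**
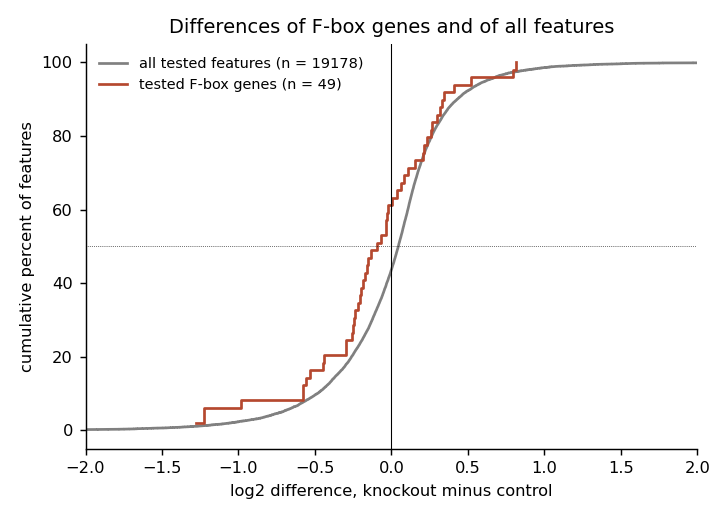
Cumulative percent of features (y axis) below a given log2 difference, knockout minus control (x axis), for the 49 tested F-box genes and all 19178 tested features. The F-box curve lies to the left below 0, with a median of −0.10 against 0.04, and meets the curve of all features above about 0.2.

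Fbxo44 had the smallest p of the F-box genes. It belongs to the subfamily with an FBA domain, several of whose members recognise sugar chains. Its log2 signal was −1.14, −1.02 and −0.88 in the knockout samples, against −1.68, −1.51 and −2.29 in the controls. All 3 knockout values lay above the highest control, and the spread was smaller in knockout (SD 0.13) than in control (SD 0.41). The difference was 0.81 (SE 0.26), a 1.75-fold higher signal (unadjusted p = 0.0144 and adjusted p = 0.545 by limma). An exact permutation test gave p = 0.1, the smallest that 3 against 3 allows. The difference was 0.94 with the slide row as a block and 0.27 after normexp. Without control 3 it was 0.58, and the unadjusted p then passed 0.05. In the other 5 fits that left out 1 array the p stayed below 0.05. The gene's other probe was well above background on 1 control array and on no knockout array, and was not tested. That probe read −4.82, −4.43 and −2.19 in knockout against −4.85, −0.23 and −2.67 in control.

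Fbxw7 is the receptor through which cyclin E, Myc, Jun and the active form of Notch are marked for degradation. The 3 knockout samples read −0.10, −0.11 and 0.27, and the controls −0.45, −0.40 and −0.64, again without overlap. The difference was 0.52 (SE 0.22), a 1.43-fold higher signal (unadjusted p = 0.0444, adjusted p = 0.681 by limma). It was 0.77 with the slide row as a block, 0.39 without knockout 3, and 0.26 after normexp. Leaving out any 1 of the 6 arrays brought the unadjusted p above 0.05. The other probe was assigned to another transcript and lay 73.549 kb away in the gene. It read −2.22, −1.29 and −1.68 in knockout against −1.02, −2.67 and −2.07 in control. There the groups overlapped, and the difference was 0.19 (SE 0.44), within 1 SE of the value of the first probe. The first probe had a p of 0.049 when all probes were fitted one by one.

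Fbxo2, a receptor for glycoproteins with high-mannose sugars that leave the endoplasmic reticulum, had a difference of nearly the same size with a wider error. Its signal was −0.27, −0.50 and −0.16 in knockout against −1.90, −0.19 and −1.23 in control, so that control 2 lay among the knockout samples. The difference was 0.79 (SE 0.41, unadjusted p = 0.0907, adjusted p = 0.821 by limma). It was 0.40 without control 1, 1.25 without control 2 and 0.31 after normexp. Fbxo36 and Fbxw20 had small differences with little spread. Fbxo36 read −0.20, −0.20 and −0.18 in knockout against −0.42, −0.49 and −0.48 in control, a difference of 0.27 (SE 0.19). Fbxw20 read −0.84, −0.77 and −0.84 in knockout against −1.07, −1.01 and −1.26 in control, a difference of 0.30 (SE 0.20). Limma moderates the spread of each gene towards that of all genes, and neither had an unadjusted p under 0.05 there (0.197 and 0.172); in an ordinary 2-sample test both were under it.

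The genes with the lowest differences were dim in knockout. Fbxo3, a receptor with roles in inflammatory signalling and in the turnover of transcription regulators, read −1.70, −3.44 and −2.91 in knockout against −2.10, −1.43 and −0.85 in control. Knockout 1 lay above control 1, and knockout 2 and knockout 3 were not well above background, so that the gene was tested because of its controls. The difference was −1.22 (SE 0.49, unadjusted p = 0.0377, adjusted p = 0.664 by limma), and −0.28 after normexp. Over the 6 fits that left out 1 array it ran from −1.72 to −0.84, with an unadjusted p under 0.05 in 2.

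Fbxo10, a receptor that targets the survival protein BCL2, read −1.21, −2.34 and −2.69 in knockout against −1.30, −0.71 and −1.29 in control. Knockout 1 again lay within the control range, and the other 2 knockout samples lay below all controls. Knockout 3 was not well above background, so this gene too was tested because of its controls, and with a filter on all 6 arrays 0 F-box genes were lower at an unadjusted p under 0.05. The difference was −0.98 (SE 0.40, unadjusted p = 0.0391, adjusted p = 0.673 by limma). It was −1.59 with the slide row as a block, −0.68 without knockout 3 and −0.23 after normexp. Leaving out 1 array kept the unadjusted p under 0.05 in 1 of 6 fits.

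Fbxo25, the closest relative of atrogin-1, read −0.58, −4.00 and −2.43 in knockout against −1.08, −0.63 and −1.47 in control. Knockout 1 was the highest of all 6 samples and knockout 2 the lowest, both in slide row 1. The difference of −1.28 (SE 0.75, adjusted p = 0.874 by limma) was therefore within the spread of the knockout samples (SD 1.71), and it ran from −2.16 without knockout 1 to −0.45 without knockout 2. Fbxo46 had the same pattern, with −0.67, −3.84 and −3.01 against −1.48, −1.40 and −0.97, a difference of −1.22 (SE 0.71). The other probe of Fbxo25 was not well above background on any array.

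Fbxw5, which serves SCF complexes and also cullin-4 ligases, was low in all 3 knockout samples, at −1.93, −2.32 and −2.03, against −1.34, −1.92 and −1.35. Knockout 1 and control 2 lay less than 0.01 apart, so that the groups were separated but touched. The difference was −0.56 (SE 0.25, unadjusted p = 0.0573, adjusted p = 0.746 by limma). Fbxl4, a mitochondrial protein whose loss in humans depletes mitochondrial DNA, had −0.58 (SE 0.29), with knockout 1 in the control range. Fbxo18, whose current symbol is Fbh1 and which encodes a DNA helicase with an F-box, had −0.53 (SE 0.28). Fbxw8, which pairs with the cullin CUL7, had −0.26 (SE 0.20), without overlap.

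**Figure D3:**
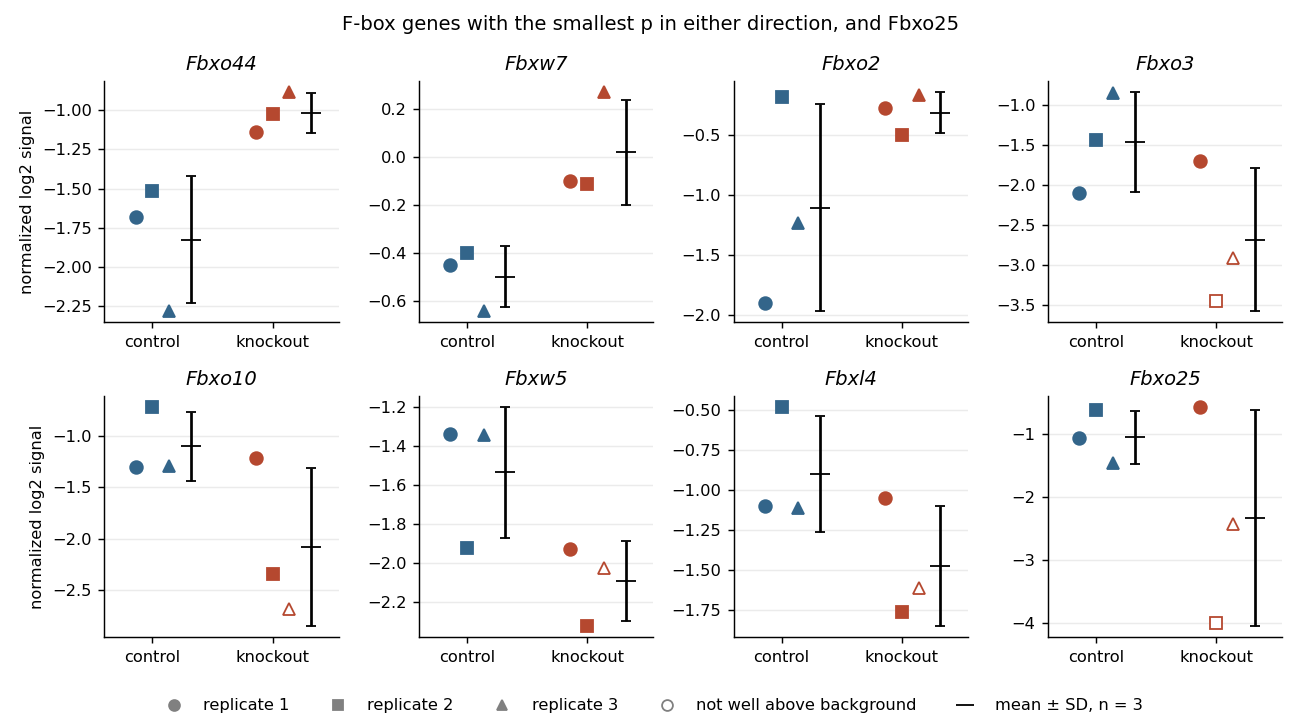
Normalized log2 signal (y axis, its range set per panel) of the 8 named F-box genes in the 3 control and 3 knockout samples (x axis), with the replicate shown by the symbol, open symbols where the probe was not well above background, and the mean ± SD beside each group. Fbxo44 and Fbxw7 do not overlap between groups, while Fbxo3, Fbxo10 and Fbxo25 have 1 knockout sample at control level and open symbols among the others.

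The receptors were then taken by role. Of 11 cell-cycle and growth receptors 6 could be tested, with Fbxw7 as the only one at an unadjusted p under 0.05 and a median difference of 0.01. Fbxo5, known as EMI1, holds back the anaphase-promoting complex before mitosis. It read −0.41, −0.90 and −0.12 in knockout against −1.02, −0.58 and 0.29 in control, a difference of −0.04 (SE 0.37) with full overlap. Fbxw11, or beta-TrCP2, marks beta-catenin and the NF-kappaB inhibitor for degradation. Its 6 samples lay between 3.96 and 4.25, with a difference of 0.08 (SE 0.20), and its second probe gave 0.07 (SE 0.21). Fbxl14, which targets the transcription factor Snail, had −0.30 (SE 0.22).

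In the FBA subfamily, 2 of 4 tested members had higher means, Fbxo44 and Fbxo2, and 2 had lower means, Fbxo6 at −0.58 (SE 0.35) and Fbxo17 at −0.24 (SE 0.30). Fbxo6, Fbxo44 and Fbxo2 have their probes within 20.619 kb of chromosome 4, and the neighbours thus lay on both sides of 0. None of them differed past the adjusted threshold.

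All 5 receptors tied to iron, mitochondria and redox control were tested, and none had an unadjusted p under 0.05. Their means were lower in 4 of 5, with a median of −0.24, and without knockout 3 in 3 of 5, with a median of −0.03. Fbxl4 and Fbxl5, both lower, passed the filter through the controls alone. With the filter on all 6 arrays 2 of 3 means were lower (median −0.15). Fbxl5, which senses iron and marks the iron regulatory protein IRP2, read −1.42, −1.48 and −3.06 in knockout against −2.12, −1.82 and −1.30 in control. Its difference was −0.24 (SE 0.46), and knockout 3, not well above background there, set its sign: without that array it was 0.29, and with the slide row as a block −1.31. Fbxo7, which acts in mitophagy with Parkin, had 0.26 (SE 0.25). Fbxl17, which checks the pairing of BTB proteins, had −0.15 (SE 0.22), and Fbxl7, a receptor for Aurora A, had −0.44 (SE 0.49).

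All 6 receptors listed for chromatin and transcription had lower means, with a median of −0.15, and Fbxo3 alone had an unadjusted p under 0.05. Fbxo11, which marks BCL6 for degradation, was even across samples, from 2.87 to 3.19, with a difference of −0.10 (SE 0.20). Fbxo45, best known from neurons, had −0.21 (SE 0.20), and Fbxo38 had −0.45 (SE 0.33). After normexp, 4 of the 6 means were lower. With the filter on all 6 arrays, which leaves Fbxo3 out, all 5 remaining means were lower (median −0.10). Of 7 tested receptors for signalling, autophagy and trafficking, 6 had lower means with a median of −0.16, and Fbxo10 was the 1 with an unadjusted p under 0.05. Fbxo10, Fbxw2 and Fbxw5 passed the filter through the controls alone, which favours a lower value in knockout. With the filter on all 6 arrays 3 of 4 means were lower (median −0.10). Without knockout 3 the same 7 genes had 3 lower means and a median of 0.01. Fbxo9 and Fbxl2, in this list, differed by −0.16 (SE 0.24) and −0.20 (SE 0.29), and knockout 3 had the lowest value of the 6 arrays for both.

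Of the 3 structural classes, Fbxl genes had 9 of 11 lower means (median −0.19), Fbxo genes 15 of 22 (median −0.13) and Fbxw genes 6 of 16 (median 0.12). The difference between classes was not tested. The signs of these medians held under median scaling, quantile normalization, the percentile over detected probes and normexp. After normexp, 7 of 11 Fbxl, 12 of 22 Fbxo and 6 of 16 Fbxw means were lower. With the filter on all 6 arrays the medians were −0.15 for Fbxl, −0.04 for Fbxo and 0.16 for Fbxw. Without knockout 3 the classes came closer, with 6 of 11 (−0.03), 13 of 22 (−0.09) and 8 of 16 (−0.00).

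The Fbxw class holds a block of closely related genes on mouse chromosome 9, most of them known from oocytes and testis. The array had 13 of them within chr9:109042040-109672648. Of these 8 were tested and 4 were not well above background on any array. The tested ones ran from −0.17 (Fbxw14, SE 0.45) to 0.34 (Fbxw21, SE 0.34), with 7 higher means, and none had an unadjusted p under 0.05. Fbxw25 had 0.33 (SE 0.24), Fbxw15 0.32 (SE 0.26) and Fbxw27 0.23 (SE 0.31). Some probes of these genes resemble each other. Those of Fbxw20 and Fbxw15 match at 46 of 56 aligned bases (82.1%). An aligned stretch of 30 bases, more alike than the whole alignment, is given with capitals for the 3 bases that differ in it.
Fbxw20: AtgtGtcctcttcctcaaTgataataaagg
Fbxw15: GtgtAtcctcttcctcaaAgataataaagg
The probes of Fbxw25 and Fbxw15 match at 41 of 57 bases (71.9%). No other pair among the probes used for the 8 tested genes matched at 70% or more. Some used probes did match a probe that was not tested or not used. That of Fbxw27 matched the other Fbxw14 probe at 33 of 39 bases (84.6%) and the other Fbxw21 probe at 27 of 35 (77.1%). The used probe of Fbxw21 matched that of Fbxw16 at 28 of 39 bases (71.8%). A signal on these alike probes may hold RNA of a neighbour. The values of Fbxw15, Fbxw20, Fbxw21, Fbxw25 and Fbxw27 are uncertain for that reason. Probes were compared only with other probes, not with the transcripts of neighbours. The other tested genes of the block were therefore not shown to be free of such signal. Over all 11 tested receptors listed as germline or oocyte genes, 8 had higher means (median 0.16), against 5 of 11 (median −0.06) without knockout 3.

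The untested F-box genes were dim. Of the 23, 11 were not well above background on any array. They were Fbxl18, Fbxl21, Fbxo15, Fbxo24, Fbxo43, Fbxo47, Fbxo48, Fbxw13, Fbxw18, Fbxw19 and Fbxw26, of which 8 are on the germline list. Another 12 were above it on some arrays but on all 3 of neither group: Fbxl6, Fbxl8, Fbxl12, Fbxl13, Fbxl16, Fbxo16, Fbxo27, Fbxo28, Fbxo41, Fbxo42, Fbxw4 and Fbxw16. The number of the 72 genes above background was 58, 51 and 42 on the arrays of knockout 1, 2 and 3, against 55, 50 and 56 on those of control 1, 2 and 3. Knockout 3 thus had the fewest F-box genes above background, as it had the lowest share of all probes.

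Several probes covered 24 of the 72 genes. Of the 23 other probes to tested genes, 9 were not well above background on any array, and 6 genes had at least 1 further probe that could be tested. Among these 6, the probes of Fbxo34 and Fbxl22 lay furthest apart. Its brightest probe read −0.89, −0.19 and −0.42 in knockout against −0.51, −0.41 and 0.17 in control, a difference of −0.25 (SE 0.28). The other read −0.89, −0.88 and −0.91 against 0.05, −0.28 and −0.26, without overlap, a difference of −0.73 (SE 0.21, unadjusted p = 0.00880 by limma fitted over probes). The probes of Fbxl22, a receptor known from the sarcomere, differed in sign, at −0.19 (SE 0.24) and 0.24 (SE 0.22).

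Knockout 3 was the lowest of the 6 arrays for 14 of 49 F-box genes (28.6%) and the highest for 13 (26.5%), close to its shares over all features (26.3% and 27.8%). Knockout 2 was the lowest for 11 (22.4%, against 10.9% of all features). With the slide row as a block, the signs of Fbxo44, Fbxw7, Fbxo3 and Fbxo10 were kept, and some genes near 0 moved far. Fbxw24 went from 0.16 to 1.27, Fbxl7 from −0.44 to −1.27 and Fbxw15 from 0.32 to 0.81. Fbxo33, which marks the transcription factor YB-1, went from 0.41 (SE 0.25) to 0.04. Its knockout 1 and 2 read −0.22 and −0.06, and knockout 3 read −0.69 beside controls of −0.87, −0.48 and −0.83. No F-box gene passed an adjusted p of 0.05 in this fit either.

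**Figure D4:**
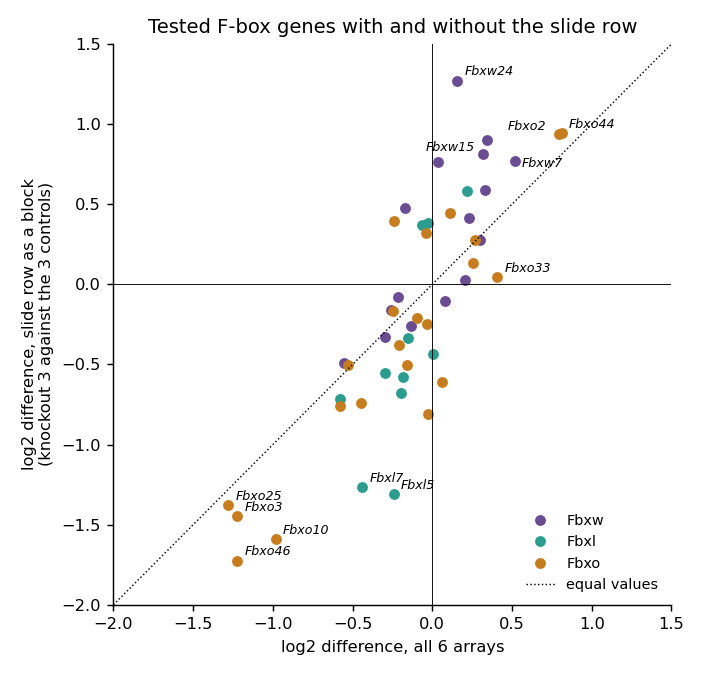
Log2 difference of the 49 tested F-box genes over all 6 arrays (x axis) against the difference with the slide row as a block, which rests on knockout 3 against the 3 controls (y axis), coloured by class, with the dotted line at equal values. Fbxo44 and Fbxw7 stay above 0 and Fbxo3 and Fbxo10 below it in both, while Fbxl5 and Fbxw24 lie far from the line, at −1.31 and 1.27.

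The machinery that the receptors plug into was set beside them, from lists of which none had a gene past the adjusted threshold. Among 6 tested scaffold and adaptor genes of the SCF, the median was 0.17 and 1 was lower at an unadjusted p under 0.05 (background 4.2%). That gene was Cks1b, the cofactor of SKP2, with 2.31, 2.20 and 1.88 in knockout below 2.75, 2.49 and 2.82 in control (difference −0.56, SE 0.22, adjusted p = 0.664 by limma). Rbx1, the RING subunit, had 0.56 (SE 0.28), from 2.64, 2.29 and 1.66 against 1.71, 1.60 and 1.60. Its knockout 3 lay at control level, and the difference with the slide row as a block was 0.03. Of 8 tested genes for attaching NEDD8 to cullins and removing it, 7 had higher means with a median of 0.14. Cops5, the catalytic subunit of the COP9 signalosome, had 0.57 (SE 0.27) and 0.07 with the slide row as a block. Among the ubiquitin-conjugating enzymes used by SCF ligases, Cdc34 had 0.55 (SE 0.24) without overlap, and Ube2d2 had 0.39 (SE 0.22). Of all features, 5.07% were higher without overlap.

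F-box genes that carry other names gave 5 tested genes with a median of −0.33. Btrc, which encodes beta-TrCP1, the near relative of Fbxw11, read 1.35, 1.37 and 1.67 in knockout below 2.42, 1.73 and 2.11 in control. Its difference was −0.62 (SE 0.25, unadjusted p = 0.0388, adjusted p = 0.669 by limma). It was −0.27 with the mean of the gene's probes in place of the brightest. Ect2l had −1.25 (SE 0.62) and was above background in 1 knockout sample. Transcripts of 19 textbook SCF substrates had a median of −0.06. Of them Ccnd1, for cyclin D1, was lower at −1.10 (SE 0.41), and Cdkn1a, for the CDK inhibitor p21, was higher at 0.63 (SE 0.24), both with an unadjusted p of 0.030 and an adjusted p of 0.627 by limma. The difference of Ccnd1 was −0.72 without knockout 3 and −1.87 with the slide row as a block. These are transcript levels, and the receptors act on proteins, which were not measured.

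Proliferation genes were set beside Fbxo5, which cycling cells express. Of 14 tested, 5 had lower means at an unadjusted p under 0.05, where 4.2% of all features did. Apart from Birc5, these passed the filter through the controls alone, which favours a lower value in knockout. The median of the 14 was −0.34, with 9 lower and 5 higher means, where Fbxo5 had −0.04. Genes that passed through the controls alone are part of that median, so the filter favoured its sign. Fbxo5 was well above background on every array, so its value is not a like comparison. Birc5, for survivin, read −0.16, −1.07 and −0.56 in knockout against 1.29, 0.92 and 0.96 in control (difference −1.65, SE 0.28, adjusted p = 0.226 by limma). Nusap1, for a spindle protein, lacked a signal well above background on all 3 knockout arrays. It was tested because of its controls alone, and its difference was −0.65 after normexp. On the processed signal the measured means were −3.54 in knockout and −0.78 in control (adjusted p = 0.136 by limma). With a raised knockout mean it was 3.46-fold lower in knockout. That raised mean took the larger of 2 values on each knockout array, the probe's own signal and the dimmest signal that counted as well above background. This dimmest signal is not a detection limit, so 3.46-fold is not a lower limit of the change.

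Markers were checked for the labelled cells and for others that a sort can carry. Of 10 satellite-cell markers 9 were tested, with 2 lower at an unadjusted p under 0.05 (background 4.2%). The summed signal of all 10, in multiples of the 75th percentile, was 133 to 150 in knockout and 162 to 217 in control. Most of these markers went the other way, with 6 of 9 means higher in knockout and a median difference of 0.04. The summed signal of 6 fibro-adipogenic markers was 446 to 489 in knockout and 559 to 902 in control, and that of 6 endothelial markers 27.1 to 70.9 and 26.8 to 91.8. All 6 endothelial markers had higher means in knockout (median difference 0.36, from 0.11 to 0.46), and 4 of the 6 fibro-adipogenic ones lower means (median −0.35). The 10 macrophage and neutrophil markers on the array summed to 725 to 1244 in knockout and 832 to 842 in control. Of the 8 tested, 5 had higher means, with differences from −0.32 to 2.26. Knockout 3 had the highest sum, though its tested markers lay on average at −0.69 from their means over the 6 arrays. Of 5 erythroid markers 3 were tested, 2 of them higher at an unadjusted p under 0.05 (background 2.83%). The sums over all 5 were 5.84 to 10.4 in knockout and 1.89 to 4.22 in control. Of 5 fibre markers 2 were tested, and Ckm was not well above background. The part of these markers in the F-box values was not tested.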

How the data were processed

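Each scanner file holds the linear intensity values of 1 array, which the authors' Agilent Feature Extraction had corrected for background and detrended, version 10.7.1.1 per the file headers and 9.5.1.1 per the submitters' processing notes. Whole-transcriptome amplification started from 5 ng of RNA, and its DNA product was labelled with Cy3, per the labels' protocols. How strand was kept is not given in the sources used here. The deposited value table, linear intensity with equal quantiles on every array, was an alternative.

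Control spots and outlier flags were left out, log2 of the processed signal was taken minus the 75th percentile of the array, and the brightest probe over 6 arrays stood for a gene. Features well above background on all 3 arrays of a group were tested 2-sided in limma 3.58.1 (lmFit, eBayes; R 4.3.3), with Benjamini-Hochberg adjustment over 19178 features. The median SE of a log2 difference was 0.27, and the number of arrays limits precision. On data simulated for knockout against control over 19176 features with 200 changed, the fit recovered 4.1% at a 2-fold change, 61.3% at 4-fold and 84.1% at 8-fold, with 4.95% false calls.

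The F-box genes and all lists were chosen with earlier results of these data known. Named genes were Psmc4 and 7 receptors always (Fbxw7, Fbxo5, Fbxw11, Fbxl5, Fbxo7, Fbxo11 and Fbxo25), for each direction the 8 F-box genes of smallest p, as none passed, and up to 2 genes of each partner list. Fbxw8, Fbxo34, Fbxo45, Fbxo9, Fbxl14, Fbxl2, Fbxl17, Fbxl7, Fbxo38, Fbxw21, Fbxw24, Fbxw27, Fbxl22, Fbxo17 and Fbxw14 were named after their values were seen. Some genes that the rule or a list takes are not reported here. Of 98 probe accessions 91 matched RefSeq names of assembly GRCm38.p6, from which no coordinates were used. The labels do not state that a replicate number pairs samples, and the samples were treated as unpaired. With each group's mean subtracted per gene, same-numbered samples correlated at 0.07, −0.02 and 0.09. So few samples cannot decide whether a pairing existed.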

Additional observations from a re-analysis of the deposited data

How the results depend on the processing

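No F-box gene reached an adjusted p of 0.05 under any alternative, and the lowest adjusted p among them ran from 0.261 to 0.999, but the counts at an unadjusted p under 0.05 rest on few arrays. Over all tested features, 0 passed an adjusted p of 0.05; 9 passed with array weights, 2 with median scaling and 1 each with the deposited table, quantile normalization and an intensity trend with robust moderation. F-box genes higher at an unadjusted p under 0.05 numbered 2. They were 4 in an ordinary 2-sample test, with the slide row as a block and in slide row 2 alone, 1 with the intensity trend, the mean of probes, no filter, the percentile over detected probes and the replicate block, and 0 with normexp. F-box genes lower numbered 2. They were 5 with array weights and in slide row 2 alone, 1 in the ordinary test, and 0 with the deposited table, quantile normalization, no filter, normexp and the filter on all 6 arrays. Leaving out 1 array gave 0 to 2 higher and 0 to 6 lower; the 6 arose without knockout 1, and both counts were 0 without control 3. The backgrounds moved too: higher features made up 8.26% of all with the slide row as a block, 7.71% in slide row 2 alone and 2.48% in the ordinary test, where F-box genes had 8.16%, 7.84% and 8.16%. Lower features made up 6.37% with array weights, 6.65% in slide row 2 alone and 4.46% without knockout 1, where F-box genes had 10.2%, 9.8% and 12%. The median of the F-box genes ran from −0.17 to −0.00 over all alternatives. The replicate number as a block, in samples that share a number but no stated pairing, moved the count of higher genes from 2 to 1 and changed no adjusted call.

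Signs of genes near 0 turned in places, and the cause was not tested. With the slide row as a block and in slide row 2 alone, Dcun1d5 was −0.36 (0.26 otherwise), Fbxo17 0.40, Fbxo5 0.32, Fbxw11 −0.10 and Fbxw14 0.47. With array weights Fbxl2 was 0.025, Fbxl5 0.12, Fbxw24 −0.52 and Fbxo9 0.0041; with normexp Fbxl5 was 0.0045 and Fbxo5 0.0029; with the mean of probes Fbxl22 was 0.026. Leaving out 1 array, Fbxl5 ran from −0.53 to 0.29, Fbxo5 from −0.33 to 0.32 and Fbxw14 from −0.51 to 0.21. In the same fits Fbxl2 ran from −0.36 to 0.044, Fbxl22 from −0.29 to 0.0097 and Fbxl7 from −0.71 to 0.041. Likewise Fbxo9 ran from −0.28 to 0.0084, Fbxw24 from −0.40 to 0.74 and Fbxw27 from −0.013 to 0.54. Nusap1 passed an adjusted p of 0.05 with array weights, at −3.15 (adjusted p = 0.028; 0.028 to 0.698 over its alternatives). Dim probes limit the lower side: a signal near background has a wide log2 spread that normexp compresses.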
